A study of Mus musculus with 8 samples.

Results

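Matrix metalloproteinases (MMPs) and their tissue inhibitors (TIMPs) were followed in mouse macrophages given all-trans retinoic acid, omentum culture supernatant, or both. The 9 genes chosen by symbol were the secreted proteases Mmp8, Mmp9, Mmp12, Mmp13 and Mmp19, the membrane-anchored protease Mmp14, and the inhibitors Timp1, Timp2 and Timp3. They are 9 of 19057 named genes on the array and are read by 16 of its 45281 probes. The cells were bone marrow derived macrophages of C57BL/6 mice, cultured for 7 days in M-CSF, the growth factor of the macrophage lineage. The 4 groups of 2 arrays were ATRA+OMsup, given 1 µM all-trans retinoic acid (ATRA, the vitamin A metabolite that activates retinoic acid receptors) together with omentum culture supernatant (OMsup, medium conditioned by the fatty tissue of the abdominal cavity), OMsup alone, ATRA alone at 1 µM, and untreated cells. Treatment lasted 24 h in a serum-free macrophage medium, and no label states that untreated cells were moved to that medium as well, so in differences from untreated cells a change of medium and the added agents cannot be told apart. Nor do the labels tie the replicates to separate cultures or animals. The p-values therefore rest on array-to-array spread within groups, which may be purely technical.

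MMPs are zinc-dependent endopeptidases made as inactive proenzymes, and together they can cut collagens, elastin, laminin and fibronectin as well as cytokines and receptors at the cell surface. TIMPs bind active MMPs one to one and block the catalytic site. Macrophages are a major source of both in inflamed tissue, in wounds and in the peritoneal cavity, where they meet factors released by the omentum.

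Of the 9 genes, 3 had group means more than 1 log2 unit apart: Mmp9, Mmp14 and Timp1. ATRA raised Mmp9. OMsup raised Mmp14 and Timp1. In the combination Mmp9 and Timp1 were 6.33-fold and 3.75-fold above untreated cells, and Mmp14 was 1.49-fold above them, against 6.23-fold with OMsup alone. Since OMsup raised both Mmp14 and Timp1, the 250 bases before their annotated starts are shown, from RefSeq on GRCm38.p6. The Mmp14 stretch lies on the plus strand at chr14:54431348-54431597 and the Timp1 stretch on the plus strand at chrX:20869916-20870165. Capitals mark matches to a GC box, GGGCGG or its reverse complement.
Mmp14: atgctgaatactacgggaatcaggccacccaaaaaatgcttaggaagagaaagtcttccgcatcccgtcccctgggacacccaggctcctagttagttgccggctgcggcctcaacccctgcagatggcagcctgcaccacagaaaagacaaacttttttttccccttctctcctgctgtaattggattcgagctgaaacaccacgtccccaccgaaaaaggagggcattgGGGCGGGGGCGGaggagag
Timp1: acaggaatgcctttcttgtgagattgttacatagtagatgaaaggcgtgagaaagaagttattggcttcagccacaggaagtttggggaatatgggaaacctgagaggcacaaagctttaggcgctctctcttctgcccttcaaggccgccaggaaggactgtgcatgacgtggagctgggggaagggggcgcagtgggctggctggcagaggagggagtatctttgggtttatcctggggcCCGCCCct

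Both stretches hold the GC box close to the start. With the base before the start numbered -1, Mmp14 has 2 adjacent copies on the printed strand, beginning at -19 and -13, and Timp1 has 1 copy on the opposite strand (CCGCCC), beginning at -8. The search covered windows of 300 bases, 250 before and 50 after the start, on both strands, and GGGCGG is in 35.7% of the 32851 such windows. Timp1 also holds TGAGTAA, a sequence related to the AP-1 site and present in 2.68% of windows, beginning at base 27 of the transcript. The AP-1 heptamer TGANTCA, in 7.81% of windows, was found in neither gene but in Mmp13, beginning at -35, and in the second of 2 windows of Mmp12, beginning at -44. The nuclear receptor hexamer AGGTCA, in 16.3% of windows, was present among these genes only in that Mmp12 window, and TTCNNNGAA, the STAT palindrome in 8.3% of windows, in none. TGANTCA and TTCNNNGAA read the same on both strands, and no matches overlapped. RefSeq windows were matched for 7 of the 9 genes, without Mmp9 and Mmp19. GC boxes were also found in Timp2 and Timp3, and none of the motifs in Mmp8. Whether any of the motifs bears on the response to OMsup or ATRA was not tested.

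Gene expression was measured on an Illumina mouse bead array in 1 colour. On each array 16116 to 16784 probes exceeded background, meaning a detection p under 0.05, and replicate arrays correlated across probes at 0.993 to 0.995. Values below are normalized intensities on the log2 scale, and differences are those of log2 group means, with n = 2 arrays per group throughout. The standard error (SE) of a difference comes from the fit. A level near 4.6 marks the limit of detection, since the dimmest probes above background lay between 4.58 and 4.63. A gene changed where its adjusted p in limma's test over 12793 genes and unnamed probes was under 0.05. All 7 macrophage markers with a probe were above background in every group. Of 6 osteoclast markers 3 were above it on both arrays of ATRA+OMsup, 2 in OMsup, and 1 each in ATRA and untreated cells. The summed linear level of the 3 tested osteoclast markers did not follow these counts. It was 499 to 576 in ATRA+OMsup, 632 to 674 in OMsup, 468 to 572 in ATRA and 602 to 611 in untreated cells. Of 5 dendritic cell markers 1, 0, 0 and 2 were above background on both arrays in the same order of groups.

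**Figure D1:**
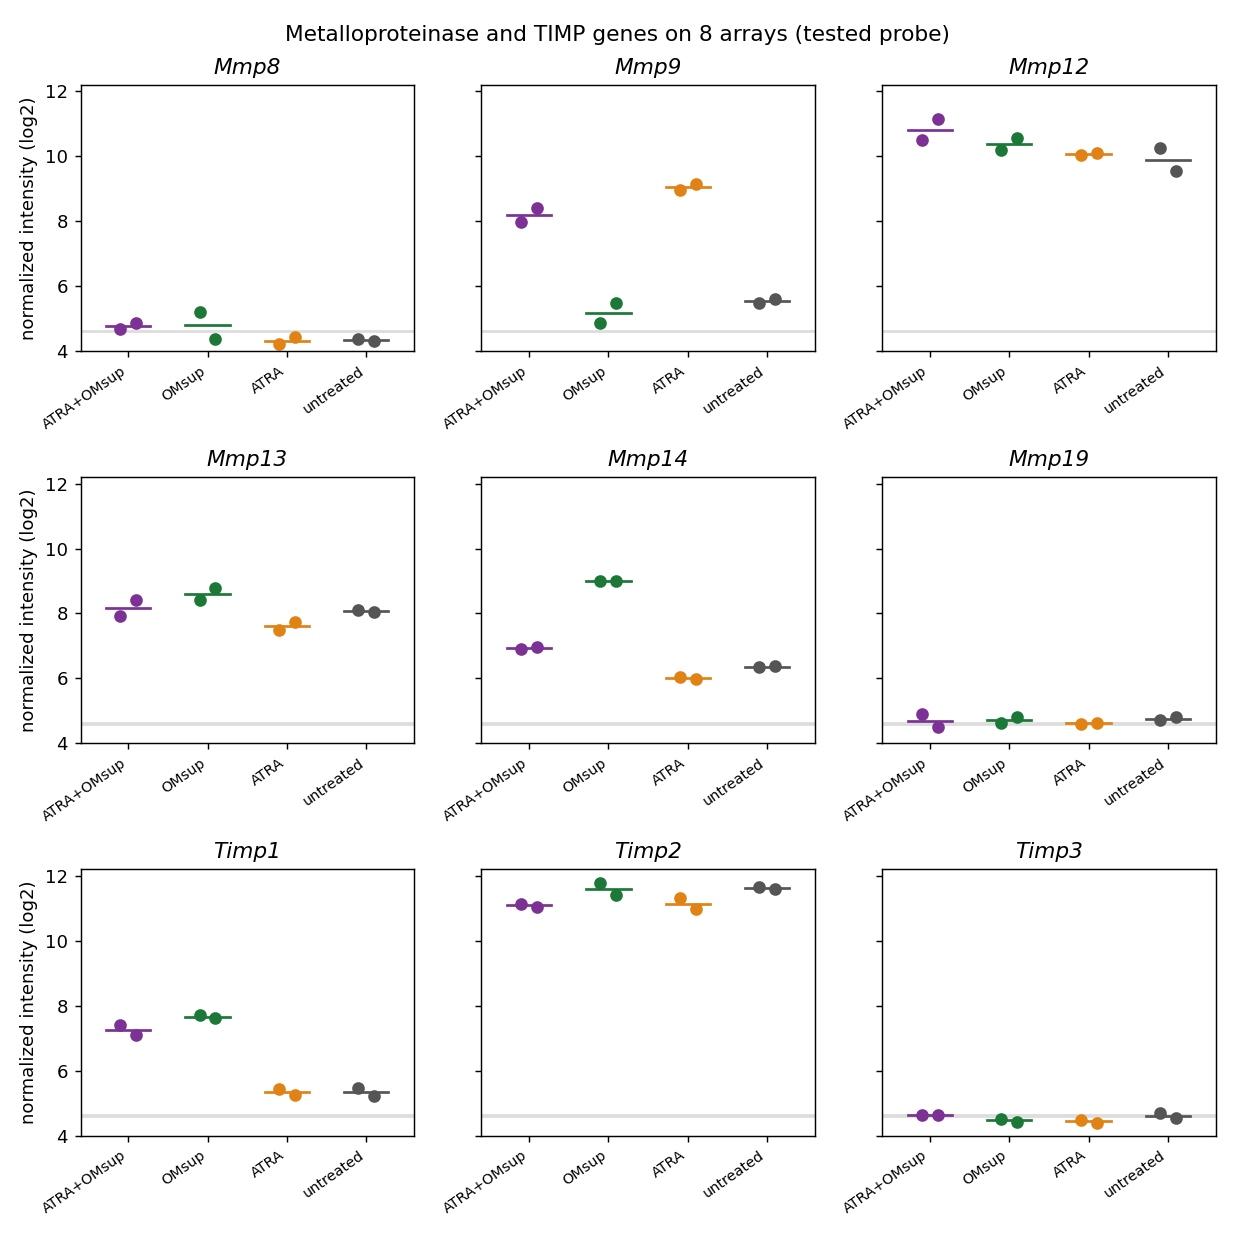
Normalized intensity (log2) of the tested probe of each gene on every array. Points are arrays, short lines are group means and the grey band spans the dimmest signals above background, 4.58 to 4.63. Mmp9 stands high in both groups with ATRA, Timp1 in both groups with OMsup, and Mmp14 in OMsup alone, while Mmp8, Mmp19 and Timp3 lie at the band.

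Mmp9 encodes gelatinase B, a secreted protease that digests denatured collagen and basement membrane type IV collagen. It was 7.97 and 8.42 on the ATRA+OMsup arrays, 4.88 and 5.48 on the OMsup arrays, 8.96 and 9.15 on the ATRA arrays, and 5.47 and 5.60 on the untreated arrays. The ATRA arrays were highest, the ATRA+OMsup arrays lay below them without overlap, and the OMsup arrays overlapped the untreated ones.

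ATRA alone raised Mmp9 11.5-fold over untreated cells (95% interval 8.12 to 16.2; log2 difference 3.52, SE 0.226, adjusted p = 2.8e-05). Added to OMsup, ATRA raised it 8.09-fold over OMsup alone (5.72 to 11.4; log2 difference 3.02, adjusted p = 2.64e-05). The difference between these ATRA effects was -0.50 (SE 0.32, 95% interval -1.21 to 0.20) and did not pass (adjusted p = 1). OMsup alone differed from untreated by -0.35 (SE 0.226, adjusted p = 0.433). In a bulk sample, a change in the number of cells of one kind and a change in RNA per cell cannot be told apart, here and below.

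With ATRA present, OMsup lowered Mmp9. The combination lay 0.86 below ATRA alone on the log2 scale (log2 difference -0.86, SE 0.226, adjusted p = 0.0344), which is 1.81-fold lower. This call ended when the first or the second untreated array, the first or the second ATRA array, or the first ATRA+OMsup array was left out, with log2 differences of -1.08 to -0.64 over all such fits and adjusted p-values of up to 0.225. The combination still stood 6.33-fold above untreated cells (4.48 to 8.95, adjusted p = 1.96e-05). In order, ATRA exceeded ATRA+OMsup, which exceeded untreated cells, while the OMsup and untreated arrays overlapped.

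Neutrophils store gelatinase B in their granules, so neutrophil and granulocyte precursor markers were followed beside Mmp9. The summed linear level of the 9 tested markers was 2570 to 2900 on the ATRA+OMsup arrays, 1980 to 2320 on the OMsup arrays, 951 to 1070 on the ATRA arrays and 1440 to 1870 on the untreated arrays. The part of such cells in the Mmp9 level was not tested. Of the 10 markers with a probe, 8 or 9 were above background in each group and Retnlg on no array. Lcn2 encodes a lipocalin whose human form binds gelatinase B in neutrophils. Such binding was not examined in these mouse cells. Lcn2 averaged 5.87 in ATRA+OMsup, 6.04 in OMsup, 5.82 in ATRA and 6.46 in untreated cells. It was lower in the combination than in untreated cells (adjusted p = 0.0448), a call not followed under the alternatives.

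Mmp14 encodes the membrane-anchored collagenase that cuts fibrillar collagen at the cell surface and activates the proenzyme of gelatinase A. It was 6.90 and 6.97 on the ATRA+OMsup arrays, 8.99 and 9.01 on the OMsup arrays, 6.03 and 5.99 on the ATRA arrays, and 6.35 and 6.37 on the untreated arrays. Replicates differed by less than 0.1, and no group overlapped another. The raw intensities were 190.7 and 194.1 in ATRA+OMsup, 565.1 and 511.7 in OMsup, 151.5 and 151.6 in ATRA, and 152.8 and 163.7 in untreated cells.

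OMsup alone raised Mmp14 6.23-fold over untreated cells (95% interval 4.95 to 7.84; log2 difference 2.64, SE 0.15, adjusted p = 2.09e-06). ATRA alone differed from untreated by -0.35 (SE 0.15, adjusted p = 0.32). With OMsup present, ATRA lowered Mmp14 by 4.18-fold relative to OMsup alone (log2 difference -2.06, SE 0.15, adjusted p = 2.55e-05). The combination was 1.90-fold above ATRA alone (log2 difference 0.93, adjusted p = 0.00227) and 1.49-fold above untreated cells (log2 difference 0.57, adjusted p = 0.025). That last call ended when any of the 4 arrays compared was left out (adjusted p = 0.0577 to 0.107), with arrays scaled to a common median (0.51, adjusted p = 0.0996) and when only the arrays of those groups entered the fit (adjusted p = 0.0857).

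The ATRA difference in Mmp14 was not the same with OMsup as without it. The part without OMsup is a difference from untreated cells, so a change of medium may enter it and the interaction below. Taking the ATRA difference in the absence of OMsup away from that in its presence gave an interaction of -1.71 (SE 0.213, 95% interval -2.18 to -1.24, adjusted p = 0.0058). Mmp14 was the 1 gene of the 9 that passed this test, which 0.242% of all genes and unnamed probes passed. Without the second ATRA array the interaction was -1.73 and just missed the limit (adjusted p = 0.0513). The order of levels was OMsup, ATRA+OMsup, untreated and ATRA. The arrays of the last pair, ATRA and untreated, lay apart by more than their replicates did (95% interval of the difference -0.69 to -0.02), but that difference missed the adjusted limit.

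**Figure D2:**
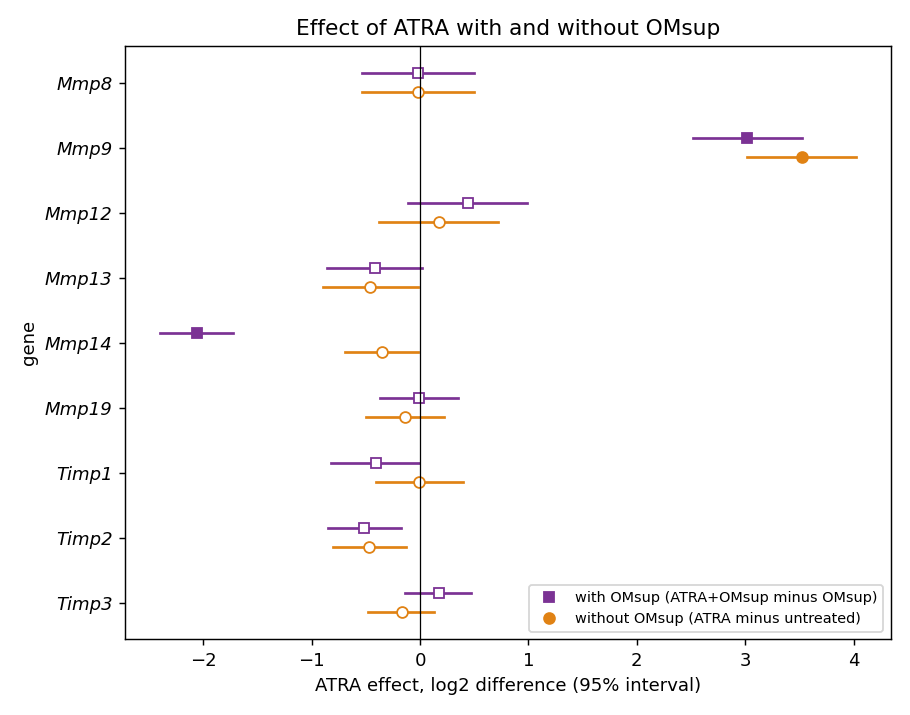
Log2 difference made by ATRA in the presence of OMsup (squares) and in its absence (circles), with 95% intervals; filled symbols have an adjusted p under 0.05. The pairs of intervals overlap for 8 genes, and for Mmp14 they are apart, at -2.06 with OMsup and -0.35 without.

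A second Mmp14 probe was above background on 1 of 8 arrays, an OMsup array at 4.82, and was not tested. Its levels were 4.29 and 4.34 in ATRA+OMsup, 4.82 and 4.50 in OMsup, 4.34 and 4.47 in ATRA, and 4.37 and 4.24 in untreated cells. It is assigned to another cDNA record of the gene, and at this signal it gives no second reading of Mmp14.

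Timp1 encodes a secreted inhibitor of most MMPs that blocks the membrane-anchored Mmp14 protein only poorly and binds the gelatinase B proenzyme. Its tested probe was 7.40 and 7.09 on the ATRA+OMsup arrays, 7.70 and 7.63 on the OMsup arrays, 5.42 and 5.25 on the ATRA arrays, and 5.47 and 5.22 on the untreated arrays. Both groups with OMsup lay above both groups without it, and the ATRA arrays lay within the range of the untreated ones.

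OMsup alone raised Timp1 4.99-fold over untreated cells (95% interval 3.78 to 6.59; log2 difference 2.32, SE 0.181, adjusted p = 1.71e-05). Added to ATRA, OMsup raised it 3.76-fold (2.85 to 4.96; log2 difference 1.91, adjusted p = 7.27e-05). ATRA alone differed from untreated by -0.01 (SE 0.181, 95% interval -0.41 to 0.40, adjusted p = 0.997), and ATRA added to OMsup by -0.41 (SE 0.181, adjusted p = 0.346). The interaction was -0.41 (SE 0.256, adjusted p = 1). In the order of levels, both ATRA+OMsup arrays lay below both OMsup arrays (95% interval of the difference -0.82 to -0.01), a difference that missed the adjusted limit, while the ATRA and untreated arrays overlapped.

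The second Timp1 probe also separated groups with OMsup from groups without it. It was 7.27 and 7.13 in ATRA+OMsup, 7.58 and 7.75 in OMsup, 5.36 and 5.16 in ATRA, and 4.94 and 5.15 in untreated cells. Taken singly among 18503 probes, it rose by 2.62 with OMsup against untreated (SE 0.179, adjusted p = 8.09e-06) and by 1.94 with OMsup added to ATRA (adjusted p = 6.06e-05). Its ATRA difference from untreated was 0.22 (SE 0.179, adjusted p = 0.748).

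**Figure D3:**
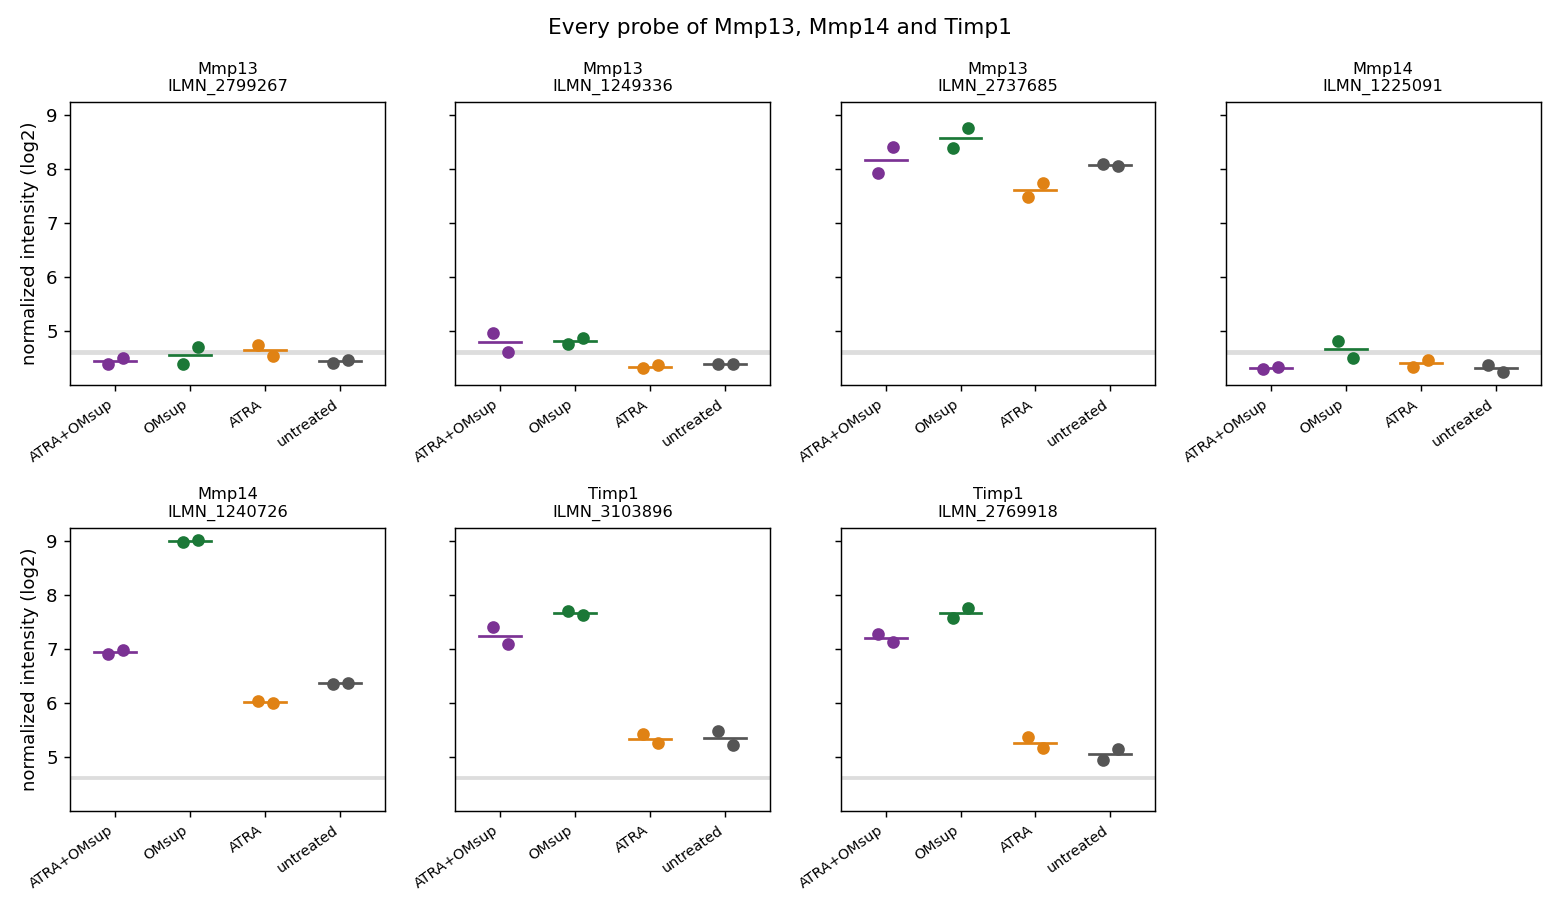
Normalized intensity (log2) of every probe of Mmp13, Mmp14 and Timp1 on the 8 arrays; points are arrays, lines group means, and the grey band spans the dimmest signals above background. Both Timp1 probes are high in the groups with OMsup, whereas Mmp13 and Mmp14 each have 1 bright probe and others near the band.

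OMsup is made from tissue that holds mesothelial cells, fibroblasts and adipocytes, which also produce Timp1 and Mmp14. None of 5 mesothelial, 7 fibroblast and 4 adipocyte markers with a probe was above background on both arrays of any group. Msln, Upk3b, Col1a1, Col1a2, Col3a1, Adipoq and Plin1 were above it on no array, while the fibroblast markers Dcn, Pdgfra and Pdgfrb were above it on some array. The summed level of the 2 fibroblast markers that could be tested was 45.9 to 52 in ATRA+OMsup, 44.7 to 55.4 in OMsup, 45 to 47.3 in ATRA and 44.4 to 45.7 in untreated cells. The part of such cells in the Timp1 and Mmp14 levels was not tested.

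Mmp12 encodes macrophage elastase, the secreted MMP most closely tied to macrophages. It was above background on all 8 arrays, at 10.51 and 11.14 in ATRA+OMsup, 10.21 and 10.56 in OMsup, 10.03 and 10.11 in ATRA, and 10.26 and 9.54 in untreated cells. The spread between replicates was widest in untreated cells (SD 0.512) and in the combination (SD 0.442), and the combination lay above untreated and ATRA without overlap. The combination raised it 1.90-fold over untreated cells (95% interval 1.30 to 2.78; log2 difference 0.93, SE 0.249, adjusted p = 0.0286). Without the second untreated array the log2 difference was 0.56 (adjusted p = 0.253), and without the second ATRA+OMsup array it was 0.61 (adjusted p = 0.189). OMsup alone differed from untreated by 0.48 (SE 0.249, adjusted p = 0.315), ATRA alone by 0.17 (adjusted p = 0.876), and the combination from ATRA by 0.76 (adjusted p = 0.0891). Of neighbours in the order ATRA+OMsup, OMsup, ATRA and untreated, none passed the test. The OMsup arrays lay just above the ATRA arrays, and the other neighbours overlapped.

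Mmp13, the main collagenase of rodents, was 7.92 and 8.41 in ATRA+OMsup, 8.40 and 8.77 in OMsup, 7.48 and 7.75 in ATRA, and 8.10 and 8.05 in untreated cells. The OMsup arrays lay above both the ATRA and the untreated arrays, and the ATRA arrays lay below all others. OMsup exceeded ATRA 1.95-fold (95% interval 1.44 to 2.65; log2 difference 0.96, SE 0.2, adjusted p = 0.00764). This call ended without the first ATRA array (0.83, adjusted p = 0.0814), without the second OMsup array (0.78, adjusted p = 0.07), and with the mean of its 3 probes (0.45, adjusted p = 0.0676). Against untreated cells, OMsup differed by 0.51 (SE 0.2, adjusted p = 0.173), ATRA by -0.46 (adjusted p = 0.34) and the combination by 0.09 (adjusted p = 0.831).

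The other Mmp13 probes were dim. One was above background on 4 arrays, all with OMsup, at 4.97 and 4.61 in ATRA+OMsup, 4.76 and 4.86 in OMsup, 4.31 and 4.36 in ATRA, and 4.39 and 4.38 in untreated cells, and none of its differences passed. The remaining probe was above background on 2 of 8 arrays.

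Timp2 encodes the inhibitor that, beside blocking active MMPs, links the Mmp14 protein to the gelatinase A proenzyme. It was 11.13 and 11.05 in ATRA+OMsup, 11.79 and 11.42 in OMsup, 11.31 and 10.98 in ATRA, and 11.64 and 11.58 in untreated cells. All 4 arrays with ATRA lay below the 4 arrays without it. The combination was 1.44-fold below untreated cells (log2 difference -0.52, SE 0.151, adjusted p = 0.0402). That call ended when any of the 4 arrays compared was left out (adjusted p = 0.0743 to 0.168) and without an intensity trend in the variance prior (adjusted p = 0.0745). ATRA alone differed from untreated by -0.47 (adjusted p = 0.15) and ATRA added to OMsup by -0.52 (adjusted p = 0.0979), both short of the limit. OMsup alone differed by 0.00 (SE 0.151, 95% interval -0.34 to 0.33, adjusted p = 0.994).

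Mmp8, Mmp19 and Timp3 were at the limit of detection. Mmp8, the collagenase of neutrophils, was above background on both ATRA+OMsup arrays (4.67 and 4.88), on 1 of 2 OMsup arrays (5.22, against 4.37 on the other), and on no ATRA (4.22 and 4.43) or untreated array (4.38 and 4.31). The mean of the combination was 1.13-fold above the dimmest signals above background on the untreated arrays. Its difference from untreated cells did not pass (adjusted p = 0.279), and the 95% interval of the measured fold, 0.939 to 1.93, includes no change. Without the second OMsup array, OMsup passed against untreated and against ATRA (adjusted p = 0.0223 and 0.0123). OMsup is then 1 array, assumed to vary like the other groups, and untreated and ATRA have only a bound, so no size is given. The neutrophil marker sums given beside Mmp9 were higher in the groups with OMsup, and their part in the Mmp8 signal was not tested.

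Mmp19, which cuts basement membrane proteins, was 4.89 and 4.51 in ATRA+OMsup, 4.62 and 4.80 in OMsup, 4.61 and 4.62 in ATRA, and 4.71 and 4.80 in untreated cells, with its other probe above background on no array. Timp3, an inhibitor bound to the extracellular matrix that also blocks the sheddase ADAM17, was 4.62 and 4.64 in ATRA+OMsup, 4.51 and 4.43 in OMsup, 4.49 and 4.38 in ATRA, and 4.68 and 4.53 in untreated cells. Its tested probe was above background on 3 of 8 arrays and its other probes on 2 and 0. Neither gene passed in any comparison, and at these levels a change would have been hard to see.

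Counted over the 9 genes, all of which had a probe past the filter, calls were spread as follows. Against untreated cells, 5 changed in ATRA+OMsup (Mmp9, Mmp12, Mmp14 and Timp1 higher and Timp2 lower), 2 in OMsup (Mmp14 and Timp1, both higher) and 1 in ATRA (Mmp9, higher). Of all genes and unnamed probes tested, 15.1%, 9.36% and 4.06% changed in these 3 comparisons. Against ATRA, 3 changed in ATRA+OMsup (Mmp14 and Timp1 higher, Mmp9 lower), where 10.4% of all did, and 4 in OMsup (Mmp13, Mmp14 and Timp1 higher, Mmp9 lower), where 13.4% did. Against OMsup, 2 changed in ATRA+OMsup (Mmp9 higher, Mmp14 lower), where 4.49% of all did. These comparisons share arrays, and the genes had been chosen with results from these arrays known. Median differences of the 9 genes from untreated cells were 0.43 in ATRA+OMsup, 0.45 in OMsup and -0.14 in ATRA, while those of all tested were -0.01, 0.00 and 0.01. Each median of the 9 is the value of 1 gene, Mmp8 in ATRA+OMsup and OMsup and Mmp19 in ATRA. Both genes lay at the limit of detection, so these medians do not show a shift of the 9 genes as a set.

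**Figure D4:**
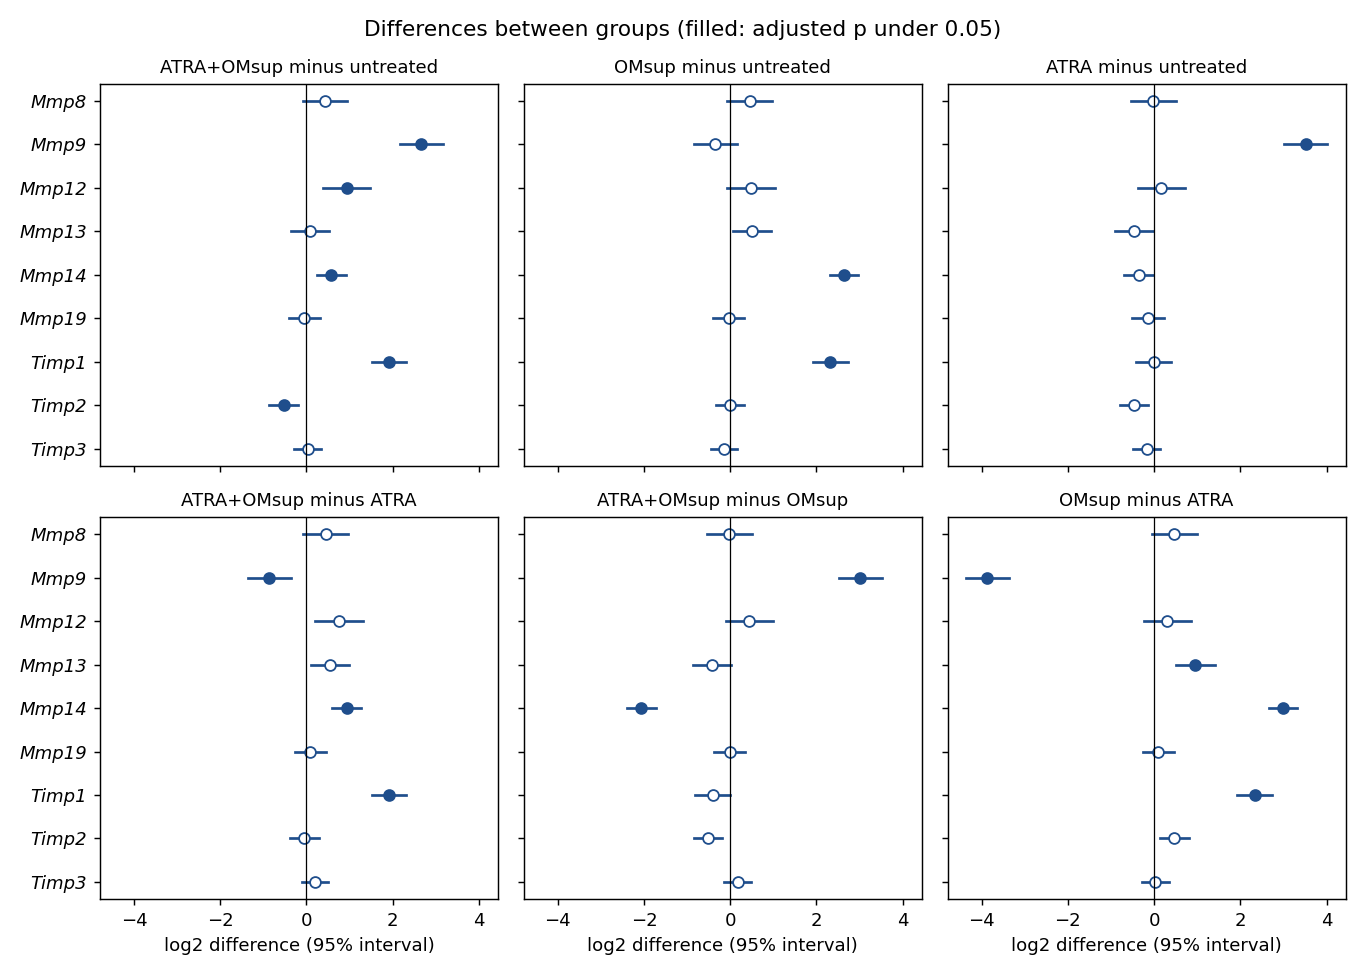
Log2 difference with its 95% interval for the 9 genes in each of 6 comparisons; filled points have an adjusted p under 0.05. Mmp9 reaches 3.52 with ATRA and -3.87 between OMsup and ATRA, Mmp14 and Timp1 reach 2.64 and 2.32 with OMsup, and Mmp8, Mmp19 and Timp3 have open points throughout.

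Without background correction no call among the 9 genes ended, but several differences were over 1.5 times smaller. Mmp9 then differed by 2.31 for ATRA against untreated, 1.59 for ATRA+OMsup against untreated, 1.71 for ATRA+OMsup against OMsup and -2.42 for OMsup against ATRA. Timp1 differed by 1.25 for OMsup against untreated, 0.96 for the combination against untreated, 0.97 for it against ATRA, and 1.25 for OMsup against ATRA. Mmp14 differed by 0.33 for the combination against untreated and 0.50 for it against ATRA. Fold sizes of these genes therefore depend on the background correction.

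Likeness to other genes was measured as the root mean square difference of log2 values over the 8 arrays after centring each gene, among tested named genes and for the 3 genes whose group means span at least 1. Nearest to Mmp9 were Slco2b1, an organic anion transporter gene (0.291), Fam102a (0.345) and Tpbgl (0.464). Slco2b1 differed from untreated by 2.23 in ATRA+OMsup, -1.07 in OMsup and 3.18 in ATRA. Nearest to Mmp14 were Ffar2, a receptor for short-chain fatty acids (0.297), the leukocyte receptor gene Tarm1 (0.307) and Cd244a (0.337), a SLAM family receptor. Ffar2 differed from untreated by 0.2 in ATRA+OMsup, 1.87 in OMsup and -0.57 in ATRA. Tarm1 differed from untreated by 0.14 in ATRA+OMsup, 2.41 in OMsup and -0.01 in ATRA. Nearest to Timp1 were Mvd, an enzyme of cholesterol synthesis (0.146), Fosl2, a subunit of the transcription factor AP-1 (0.186), and Fcgr2b, the inhibitory Fc gamma receptor (0.209). Mvd differed from untreated by 1.63 in ATRA+OMsup, 2.01 in OMsup and -0.19 in ATRA. Fosl2 differed from untreated by 1.58 in ATRA+OMsup, 2.16 in OMsup and 0.10 in ATRA. A link between Fosl2 and Timp1 was not tested.

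Mmp8, Mmp12 and Mmp13 lie in a run of 10 MMP genes on chromosome 9 of GRCm38.p6, in the order Mmp13, Mmp12, Mmp1b, Mmp3, Mmp1a, Mmp10, Mmp8, Mmp27, Mmp20 and Mmp7. Mmp12 and Mmp13, at one end, each had a probe above background on all 8 arrays. Mmp1b, Mmp20 and Mmp7 were above background on no array, and Mmp3 and Mmp10 on 1 OMsup array each. Mmp1a had 3 probes, of which 1 was above background on all 8 arrays, at 5.30 to 6.08, and the others on 0 and 1. Mmp27 was not analysed here.

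Among all 17 other MMP genes listed, 15 had a probe, 10 were above background on no array and 3 were tested (Mmp1a, Mmp24 and Mmp28), none of which changed in any comparison. Each of these readings rests on 1 probe that differs from the others of its gene. Mmp24 had 1 probe at 8.31 to 8.64, and its other probes were dim, above background on 7, 2 and 0 arrays. Mmp28 had 1 probe at 4.64 to 5.28, and its other probes were above background on no array. Mmp2, which encodes gelatinase A, the protease activated by the Mmp14 and Timp2 proteins, was among those with no signal above background. So was Mmp25, a membrane-anchored MMP of leukocytes. Timp4 was above background on no array.

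Proteases that activate MMPs, and partners that hold or clear them, moved both ways among 13 tested genes. In ATRA+OMsup 1 was higher and 4 were lower than in untreated cells, in OMsup 1 and 2, and in ATRA 0 and 2. Of all genes and unnamed probes, 15.1%, 9.36% and 4.06% changed in these comparisons. No list, here or below, was tested against those shares. Plau, the urokinase that starts the plasmin cascade able to activate MMP proenzymes, fell by 2.21 in ATRA+OMsup and by 1.76 in OMsup against untreated (adjusted p = 2.99e-05 and 0.000256), and differed by 0.21 in ATRA (adjusted p = 0.766). Plaur, its receptor, fell by 1.88 in ATRA+OMsup, by 1.19 in OMsup and by 1.44 in ATRA against untreated (adjusted p = 0.000143, 0.00491 and 0.00316). Cd44, a hyaluronan receptor that can hold gelatinase B and the Mmp14 protein at the cell surface, fell by 0.65 in ATRA (adjusted p = 0.0103) and, with ATRA added to OMsup, by 0.71 (adjusted p = 0.00513). Furin, which cuts the Mmp14 proenzyme, was 1.19 higher in OMsup than in ATRA (SE 0.278, adjusted p = 0.0145). Ctsg, also counted as a granulocyte marker, rose by 1.19 in OMsup (adjusted p = 0.000883). The median difference from untreated was -0.06 in ATRA+OMsup, 0.11 in OMsup and -0.36 in ATRA.

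Other protease inhibitors were few, 5 tested of 12 with a probe. Against untreated cells, 3 were higher and 1 lower in ATRA+OMsup, 2 were higher in OMsup and none changed in ATRA. The shares over all genes and unnamed probes were 15.1%, 9.36% and 4.06%. Spint1, an inhibitor of serine proteases of the cell surface, rose by 2.87 in ATRA+OMsup and by 3.69 in OMsup (adjusted p = 2.05e-06 and 7.92e-07), and ATRA added to OMsup lowered it (log2 difference -0.82, adjusted p = 0.024). Slpi, the secreted inhibitor of leukocyte elastase, rose by 2.89 in ATRA+OMsup and by 3.34 in OMsup (adjusted p = 7.39e-06 and 4.87e-06). Cst7, a cystatin of immune cells, rose by 0.52 in ATRA+OMsup, just inside the limit (adjusted p = 0.0491). Only 1 of 2 untreated arrays was above background for it, and listed genes were not followed singly under the alternatives. The median difference from untreated was 0.52 in ATRA+OMsup, which is the value of Cst7, 0.45 in OMsup and -0.13 in ATRA.

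Of 10 tested ADAM and ADAMTS genes, which encode related metalloproteinases of shedding and matrix turnover, 1 was higher and 1 lower than in untreated cells in both ATRA+OMsup and OMsup, and none changed in ATRA. Over all genes and unnamed probes, 15.1%, 9.36% and 4.06% changed in ATRA+OMsup, OMsup and ATRA, so these few calls say little about the family. Adam9, a membrane sheddase, rose by 1.53 in ATRA+OMsup and 1.66 in OMsup (adjusted p = 0.00466 and 0.00433). Adam17, the sheddase of tumour necrosis factor that Timp3 inhibits, fell by 0.52 and by 0.48 in these groups (adjusted p = 0.0195 and 0.0416). The median differences from untreated were -0.17 in ATRA+OMsup, -0.03 in OMsup and -0.05 in ATRA.

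Lysosomal cathepsins and legumain, which degrade matrix that macrophages take up, were higher for 5 and lower for 1 of 12 tested in ATRA+OMsup, higher for 4 and lower for 1 in OMsup, and lower for 1 in ATRA, against untreated cells. Beside these counts, 15.1%, 9.36% and 4.06% of all genes and unnamed probes changed. Ctsl rose by 2.54 in ATRA+OMsup and by 2.09 in OMsup (adjusted p = 5.87e-05 and 0.00039), and Ctsc, which activates granule serine proteases, by 1.40 and 1.36 (adjusted p = 5.4e-05 and 0.000109). Ctsh rose by 0.86 in ATRA+OMsup (adjusted p = 0.000309), and Ctss, which also works outside the lysosome, by 1.01 in OMsup (adjusted p = 0.0351). Ctsk, the collagen-degrading cathepsin of osteoclasts, fell by 1.43 in ATRA (adjusted p = 0.000212) and, when ATRA was added to OMsup, had a log2 difference of -1.03 (adjusted p = 0.00155). The median differences from untreated were 0.49 in ATRA+OMsup, 0.19 in OMsup and 0.17 in ATRA.

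Among matrix proteins, the substrates of MMPs, 11 of 23 genes with a probe were tested. Against untreated cells 5 were higher in ATRA+OMsup, 6 were higher and 1 lower in OMsup, and 1 was lower in ATRA. Among all genes and unnamed probes, 15.1%, 9.36% and 4.06% changed in the same comparisons. Fn1, fibronectin, was not above background in ATRA or in untreated cells. It was higher in ATRA+OMsup than in untreated cells, by at least 3.25-fold (adjusted p = 6.75e-05), and 1.32 higher on the log2 scale than in OMsup (adjusted p = 0.00255). Col18a1, a basement membrane collagen, rose by 1.42 in OMsup (adjusted p = 0.000123), and ATRA added to OMsup lowered it (log2 difference -1.06, adjusted p = 0.0017). Vcan, the proteoglycan versican, was not above background in ATRA+OMsup and was at least 1.98-fold lower there than in OMsup (adjusted p = 0.00445). Thbs1, thrombospondin, also had no untreated array above background. Over untreated cells it was higher by at least 3.12-fold in ATRA+OMsup and at least 3.28-fold in OMsup (adjusted p = 0.000235 and 0.00033). Lamc1, a laminin chain, rose by 1.41 in ATRA+OMsup (adjusted p = 0.000377). Tgfbi, a collagen-binding matrix protein, rose by 1.5 in OMsup and fell by 1.10 in ATRA (adjusted p = 8.85e-06 and 0.000224). The median differences from untreated were 0.49 in ATRA+OMsup, 0.85 in OMsup and -0.21 in ATRA.

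**Figure D5:**
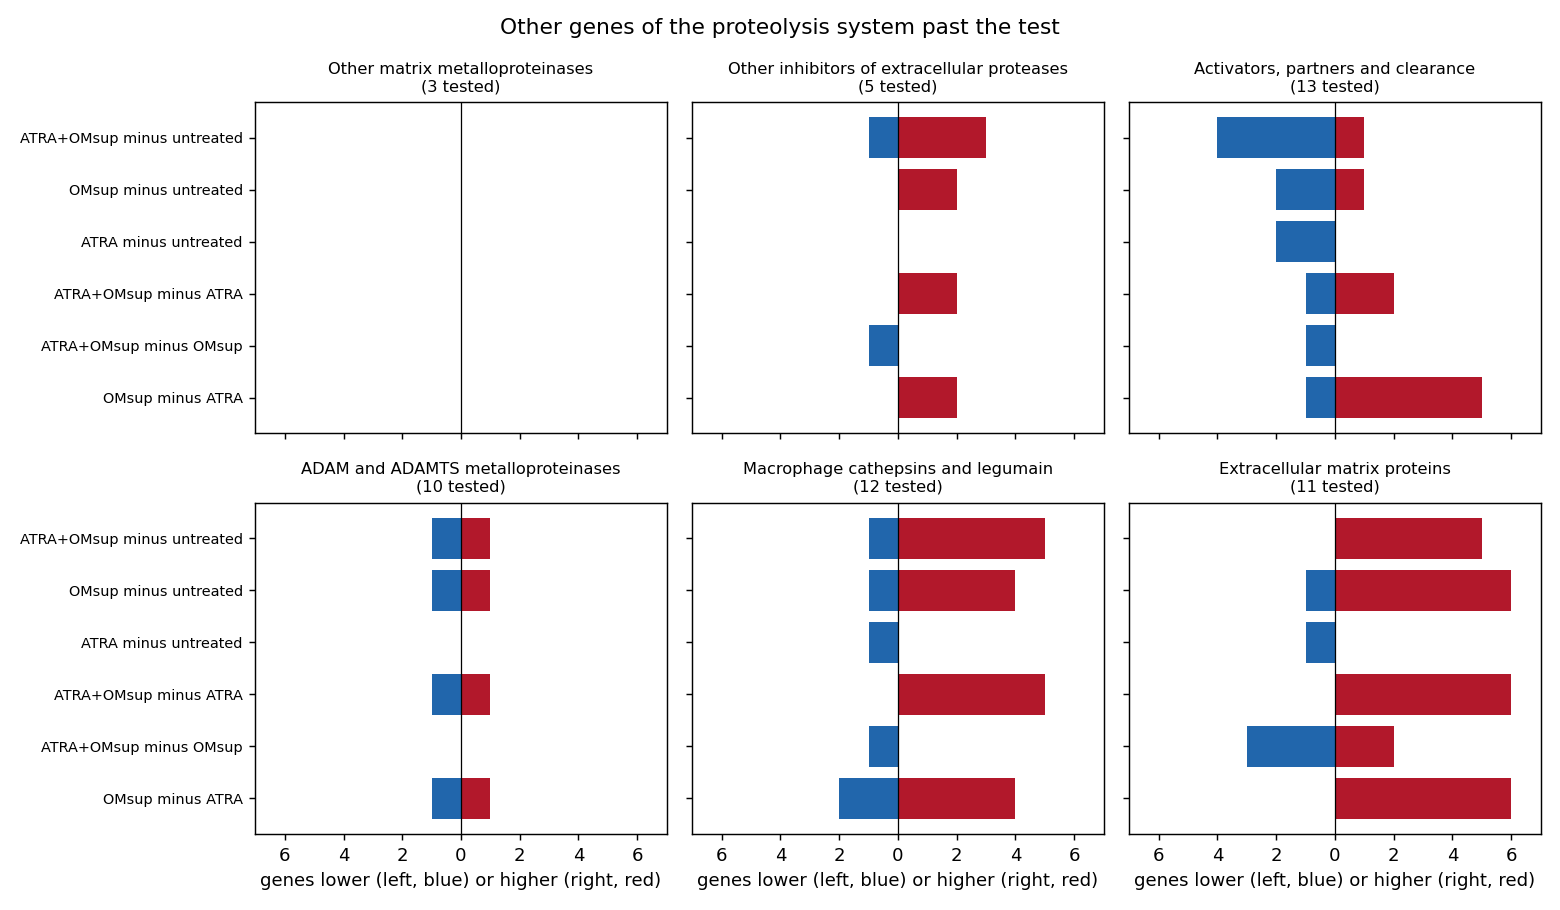
Number of genes higher (right, red) and lower (left, blue) with an adjusted p under 0.05 in 6 comparisons for 6 lists of genes that work with MMPs; the number tested stands above each panel. No other MMP gene passed, and matrix protein genes were higher in 5 or 6 of 11 cases in the comparisons of a group with OMsup against one without. In those comparisons 9.36% to 15.1% of all genes and unnamed probes changed in either direction.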

How the data were processed

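Per the labels, RNA came from RNeasy micro columns with a DNase step, and the Ambion MessageAmp chemistry gave biotin-labelled cRNA. The authors deposited a non-normalized intensity and, per the file headers, a detection p-value for each probe and array. A deposited normalized matrix of linear intensity served only as an alternative: each of its 8 columns correlated best with the array it is named for. The sources used here do not give the authors' software or the placement of samples on chips.

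The deposited intensities were corrected and quantile normalized with neqc (limma 3.58.1, R 4.3.3, controls estimated from detection p-values, offset of 16) and put on the log2 scale. Kept were 18503 of 45281 probes, those detected (p under 0.05) on 2 or more arrays, and 13 of the 16 probes of the 9 genes. A symbol was represented by its brightest kept probe (10068 genes), and 2725 probes without a single symbol stood alone. Group means were fitted to all 8 arrays with lmFit and eBayes with a trend (4 residual and 6.62 prior degrees of freedom), and p-values adjusted by the Benjamini-Hochberg method over 12793 features in each of 7 comparisons. The number of arrays limits the precision. The fit was tested on simulated data.

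A group with no array above background has only a bound, set against the dimmest signals above background. The 9 genes, the 6 lists of related genes, the markers and the motifs were chosen with earlier results of these data known. All 9 genes are described, and of each list at most the 3 called genes with the largest difference per comparison. Lcn2, values of listed genes without a call, and MMP genes below background were named after their values were seen. Alternatives changed the background correction, scaling, source, offset, filter, choice of probe, variance prior, arrays fitted, a replicate block and single arrays.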

Additional observations from a re-analysis of the deposited data

Results flagged for a closer look

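Mmp14 had a different response to ATRA in the presence and absence of OMsup by a direct test of that difference. Untreated arrays enter this test, so a change of medium and a dependence on OMsup cannot be told apart. The interaction was -1.71 on the log2 scale (SE 0.213, limma adjusted p = 0.0058), from an ATRA effect of -2.06 with OMsup and of -0.35 without it. Over the other fits it ran from -1.78 to -1.39 (adjusted p = 0.00103 to 0.0513). It rests on 1 of the gene's 2 probes, since the other was near background.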

How the results depend on the processing

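Of 1174 values for the 9 genes under the alternatives, 1139 kept their side of the limit, 22 lost a call, 13 gained one and none with a call changed sign; of 820 without a call in either fit, 42 had the other sign. The calls of Mmp9 for ATRA against untreated, of Mmp14 and Timp1 for OMsup against untreated, and of Mmp9 and Mmp14 for ATRA added to OMsup held under all 19 alternatives each. No label ties equal replicate numbers to a shared culture, and the main fit has no replicate block. Deviations of equally numbered arrays correlated at 0.433 to 0.532 between the treated groups. Between untreated cells and the treated groups they correlated at -0.00985 to 0.209. With the replicate block the number of the 9 genes called was 2 for ATRA against untreated (Timp2 added) and 5 for ATRA+OMsup against ATRA (Mmp12 and Mmp13 added). It also added Timp2 for ATRA+OMsup against OMsup (adjusted p = 0.0129) and OMsup against ATRA (0.0106) and Mmp13 for OMsup against untreated (0.0467), with 0.0241 for Timp2 in ATRA against untreated. With the block 924, 899 and 65 of all features passed for ATRA against untreated, ATRA+OMsup against OMsup and the interaction, against 520, 575 and 31 without it. For OMsup against untreated, ATRA+OMsup against ATRA and OMsup against ATRA, 1772, 1884 and 2344 passed, against 1197, 1331 and 1709. The block thus added calls over all features and not only among the 9 genes. Leaving out single arrays, the 9 genes had 2 to 5 calls for ATRA+OMsup against untreated, 2 to 4 against ATRA, 2 to 3 against OMsup, 2 to 3 for OMsup against untreated, 3 to 5 for OMsup against ATRA, 1 in each fit for ATRA against untreated, and 0 to 1 for the interaction. The number of calls over all features also varied over these fits. Each of them leaves a group with a single array, so the counts cannot separate the array removed from the loss of a replicate. Scaling arrays to a common median moved the median of all features by -0.18 for OMsup against ATRA and -0.13 for ATRA+OMsup against ATRA, and the split of higher and lower calls to 499 and 1496 (800 and 909 with quantile normalization) and to 463 and 979 (637 and 694). It was 427 and 706 for OMsup (599 and 598) and 384 and 144 for ATRA (300 and 220) against untreated. Relative to those medians, OMsup minus ATRA was -3.91 for Mmp9, 2.91 for Mmp14, 2.26 for Timp1 and 0.88 for Mmp13, and ATRA+OMsup minus ATRA was -0.88, 0.87 and 1.88 for the first 3. Signal near background limits Mmp8, Mmp19 and Timp3.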
